A study of Homo sapiens with 12 samples.

Results

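BEAS-2B cells exposed to poultry dust extract for 3 h were compared with BEAS-2B cells kept in medium alone, on 4 of the 12 arrays of the study, chosen by their titles. BEAS-2B is a line of human bronchial epithelial cells immortalized with a viral oncogene, so it stands for cultured airway epithelium and not for the mixed cells of an airway wall. The tested arrays came from cells given 0.25% extract for 3 h (2 arrays) and the controls from cells in medium (2 arrays). Both groups were starved of serum overnight beforehand, and the time the controls spent in medium is not given in the sources used here. Messenger RNA was measured on a human Illumina BeadChip that also carried BEAS-2B cells given 0.25% extract for 1 h (2 arrays), and THP-1 monocytic leukaemia cells given 0.1% extract for 1 or 3 h or medium (2 arrays each). For the THP-1 arrays 1 label (source name) gives A459, while the titles and cell line fields give THP-1. Of the 10 monocyte markers on the array all were detected on each of the 6 arrays labelled THP-1, and of the 10 epithelial markers 9 were detected on none of them. Nothing in the labels tells whether replicate arrays came from different cultures, and the p-values therefore reflect only array-to-array spread, possibly technical.

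Poultry dust holds bacterial and fungal products, proteases and fine particles, and airway epithelium meets it first. Such products act on pattern recognition, cytokine and growth factor receptors, which pass the signal to NF-kB and to MAP kinases with AP-1. NF-kB is held in the cytoplasm by inhibitors such as NFKBIA, enters the nucleus when they are degraded, and switches on chemokines, cytokines and its own inhibitors. The released chemokines attract neutrophils and other leukocytes, and proteins such as TNFAIP3 and ZFP36 limit the response by ending the signal or by destroying the messengers.

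The genes with the largest rises included a cluster of neutrophil chemokines on chromosome 4, and their promoters are shown because several carry the same NF-kB type sequence. Promoters came from RefSeq (GRCh38.p14), and the 250 bases before the gene's start were searched on both strands for GGAATTTCC, a form of the NF-kB site. Capitals mark the match, each sequence runs 5′ to 3′ along the gene, and ICAM1 holds the match on the opposite strand. The windows are chr4:73740319-73740568 (plus strand) for CXCL8, chr4:73998733-73998792 (minus strand) for CXCL5, chr4:73836564-73836623 (plus strand) for CXCL6, chr4:73869290-73869349 (plus strand) for CXCL1, chr4:74099238-74099297 (minus strand) for CXCL2 and chr19:10270909-10270968 (plus strand) for ICAM1.
CXCL8: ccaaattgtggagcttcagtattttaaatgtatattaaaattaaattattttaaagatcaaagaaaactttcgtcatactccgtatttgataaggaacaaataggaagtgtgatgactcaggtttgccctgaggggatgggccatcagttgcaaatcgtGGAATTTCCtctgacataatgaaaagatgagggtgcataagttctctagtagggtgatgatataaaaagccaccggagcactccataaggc
CXCL5: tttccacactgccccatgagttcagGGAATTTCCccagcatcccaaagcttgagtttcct
CXCL6: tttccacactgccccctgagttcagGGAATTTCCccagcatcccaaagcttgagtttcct
CXCL1: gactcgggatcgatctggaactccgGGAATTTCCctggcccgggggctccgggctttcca
CXCL2: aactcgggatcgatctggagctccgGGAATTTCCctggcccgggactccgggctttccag
ICAM1: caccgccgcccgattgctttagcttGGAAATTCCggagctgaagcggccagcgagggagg
In CXCL8 the match lies 91 to 83 bases before the start, in CXCL5 90 to 82, in CXCL6 89 to 81, in CXCL1 78 to 70, in CXCL2 77 to 69 and in ICAM1 186 to 178. Of 77 named genes that rose at least 4-fold, 61 had a promoter in the table, and 9 of those (14.8%) held the sequence. These were the 6 shown with CXCL10, NFKBIZ and MAP3K8. The sequence stood in 14 of 308 promoters of all named rises (4.55%), in none of 243 promoters of named falls, in 43 of 9203 promoters of tested genes (0.467%) and in 117 of all 27305 promoters (0.428%). TGACTCA, a form of the AP-1 site, stood in 9 of the 61 promoters (14.8%), 23 of the 308 (7.47%), 6 of the 243 (2.47%), 250 of the 9203 (2.72%) and 1136 of all 27305 (4.16%), and one lies in the CXCL8 sequence above. TGACGTCA, a form of the cyclic AMP response site, stood in 1 of the 61 promoters (1.64%), 9 of the 308 (2.92%), 2 of the 243 (0.823%), 274 of the 9203 (2.98%) and 482 of all 27305 (1.77%). None of these sequences overlaps another in its letters. These shares are descriptions without a test. CXCL5 and CXCL6, and likewise CXCL1 and CXCL2, are close relatives by sequence, so their promoters are not independent cases, and each probe may also bind the other gene's RNA.

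Detection was similar on the 4 arrays, with 15411 and 15472 probes detected on the dust arrays and 15718 and 16650 on the control arrays, each probe read from a median of 21 beads. Of 15489 genes and unnamed probes tested, 12949 (9847 of them named genes) were detected on both arrays of dust 3 h or of control. Within these 12949, 12531 (96.8%) changed by less than 2-fold, 131 were detected on both dust arrays and neither control array, and 370 on both control arrays and neither dust array. In epithelial markers the cells matched their label. All 10 epithelial markers on the array, among them the keratins KRT7, KRT8 and KRT19 and the cadherin CDH1, were detected on all 4 arrays. Of 8 secretory or ciliated markers only TUBB4B, which most cells use, was detected, and SCGB1A1 and FOXJ1 were not. Of 10 mesenchymal markers VIM, COL1A1, PDGFRB, ACTA2 and CDH2 were detected on all 4 arrays, FN1 on 1 and the other 4 on none. VIM is usual in cultured lines. PDGFRB read 6.65 and 5.79 on the dust arrays, against 7.52 and 7.63 on the control arrays (adjusted p = 0.00789, limma). Of 10 monocyte markers CD14 and CD68 were detected on all 4 arrays and LYZ on 1. The other 7, PTPRC and SPI1 among them, were detected on none. The summed linear signal of the monocyte markers was 1158 and 1263 on the dust arrays and 1347 and 1151 on the control arrays. That of the epithelial markers was 29603 and 23763 on the dust arrays and 23104 and 22076 on the control arrays. CLDN1 was the brightest epithelial marker on dust replicate 1 and had the largest change of them. It read 13.39 and 12.26 on the dust arrays, against 11.61 and 11.43 on the control arrays, without a call. ITGB4 was the only epithelial marker called, a fall. It read 10.25 and 10.21 on the dust arrays, against 10.81 and 10.78 on the control arrays (adjusted p = 0.0205, limma). That call was lost on leaving out any 1 of these 4 arrays and on the 4 arrays alone. The median change of the epithelial markers was 0.04 log2. In such bulk samples a change in the number of cells of one kind and a change in RNA per cell cannot be told apart.

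Dust extract for 3 h was marked by the rise of secreted inflammatory mediators and of NF-kB subunits and feedback genes. At an adjusted p under 0.05 (limma, Benjamini-Hochberg over all 15489), 505 rose (3.26%) and 342 fell (2.21%), together 847 (5.47%). The rises were the larger changes: 280 were up by 2-fold or more and 87 by 4-fold or more, against 86 and 7 falls of those sizes, and 18 were up by 16-fold or more. The median change over all tested was -0.04 log2. In all 847 the dust arrays lay on one side of both control arrays. Among the 12949 detected on both arrays of dust 3 h or of control, 494 rose (3.81%) and 334 fell (2.58%). Median scaling gave 475 rises and 618 falls, so rises were 43.5% of calls in place of 59.6%, and the 6 BEAS-2B arrays alone gave 615 and 640 (49%). The number called fell to 217 without control replicate 1, 271 without control replicate 2 and 521 without dust 3 h replicate 1, and was 862 without dust 3 h replicate 2. The fit on these 4 arrays alone called 421.

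**Figure D1:**
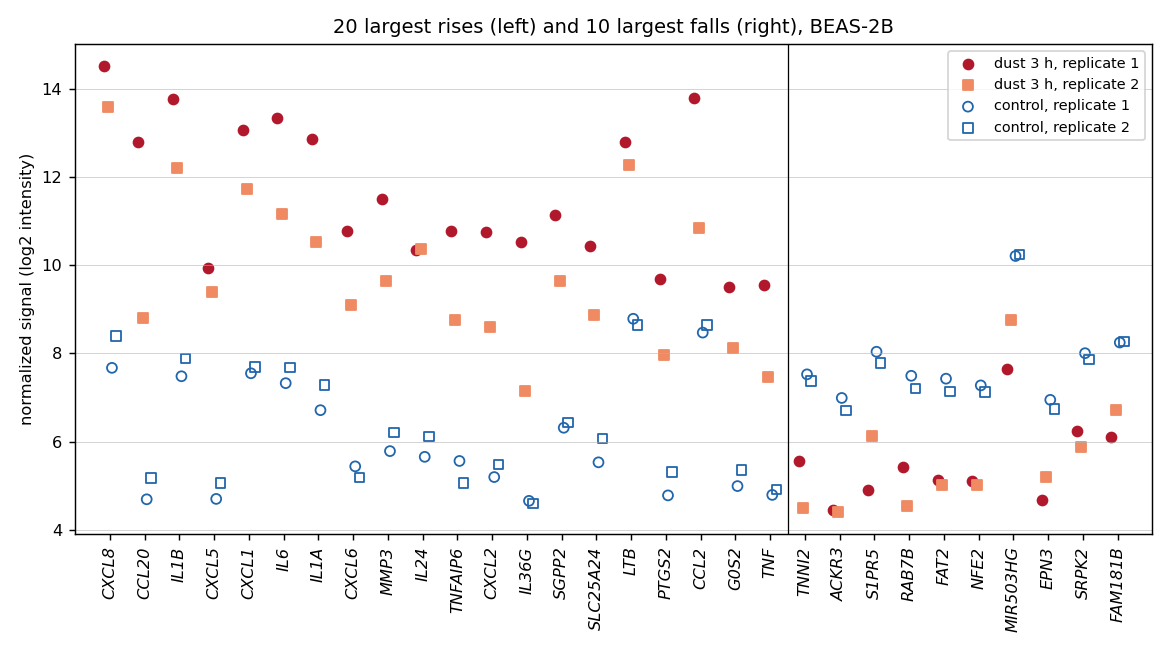
Normalized log2 intensity (vertical axis) of the 20 named genes with the largest rises and the 10 with the largest falls, ordered by size of change, with dust 3 h arrays as filled and control arrays as open symbols. Dust replicate 2 lies below replicate 1 in 19 of the 20 rises, IL24 being the exception, and all dust points lie beyond both control points.

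Chemokines, which draw leukocytes into tissue, moved most. Of 16 listed, 12 were measured, 10 rose (83.3%, against 3.26% of all tested) and none fell. The median log2 change was 4.05 against -0.04 over all tested. The gene lists were chosen with earlier results of these data known, so their counts are descriptions. The same 3.26% stands against the risers of each list below. A measured gene was detected on both arrays of at least 1 of the 6 groups. Some were therefore undetected on all 4 arrays compared, 2 of the 12 chemokines among them. CXCL8, the main human neutrophil attractant, read 14.51 and 13.58 log2 on the dust arrays, against 7.67 and 8.40 on the control arrays. That is 6.01 ± 0.31 log2 (SE) or 64.5-fold, the largest change of any named gene (adjusted p = 4.80e-06, limma), and the groups are far apart. CXCL1, another neutrophil attractant, read 13.06 and 11.72 on the dust arrays, against 7.55 and 7.69 on the control arrays, 27.4-fold higher (adjusted p = 0.000106, limma). Its relatives CXCL5, CXCL6 and CXCL2 were not detected on either control array, which makes their folds lower bounds. CXCL5 read 9.92 and 9.40 on the dust arrays, at least 16.2-fold higher, with the dust arrays close together. CXCL6 read 10.78 and 9.10, at least 19.6-fold higher, and CXCL2 read 10.76 and 8.59, at least 16.3-fold higher.

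For CCL20 and CCL2 the dust arrays lay farther apart than for those genes, and for CCL5 they lay close together. CCL20, which attracts dendritic cells and memory lymphocytes through CCR6, read 12.80 and 8.81 on the dust arrays and was undetected on the control arrays, at 4.69 and 5.18. It rose at least 35.7-fold (adjusted p = 0.00495, limma), with its dust arrays almost 4 log2 units apart. CCL2, a monocyte attractant, read 13.80 and 10.84 on the dust arrays, against 8.47 and 8.64 on the control arrays, 13.6-fold higher (adjusted p = 0.0145, limma). The calls of both genes were lost without control replicate 1 and on the 4 arrays alone, and that of CCL2 also without control replicate 2. CCL5, which attracts T cells and eosinophils, read 9.13 and 8.86 on the dust arrays, against 7.14 and 6.84 on the control arrays, 4.01-fold higher. CXCL10 and CXCL16 also rose.

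Among cytokines and colony-stimulating factors, 11 of 18 measured rose (61.1%, against 3.26% of all tested) and none fell. Their median log2 change was 2.03. IL1B, a starter of the acute phase and of fever, read 13.76 and 12.20 on the dust arrays, against 7.48 and 7.89 on the control arrays, 39.3-fold higher (adjusted p = 6.74e-05, limma). Its partner IL1A read 12.86 and 10.52 on the dust arrays, against 6.71 and 7.28 on the control arrays, 25.9-fold higher. IL6, which drives acute phase proteins and antibody production, read 13.34 and 11.17 on the dust arrays, against 7.32 and 7.67 on the control arrays, 27.0-fold higher. In all 3 genes the weaker dust array still lay more than 3 log2 units above both control arrays.

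IL24, a cytokine of the IL-10 family, gave the same signal on both dust arrays. It read 10.33 and 10.37 there, against 5.65 and 6.12 on the control arrays, of which 1 detected it. The fitted change was 4.47 ± 0.16 log2 (SE, adjusted p = 9.21e-07, limma). IL23A, the specific subunit of interleukin 23, read 7.97 and 7.87 on the dust arrays, against 5.16 and 5.57 on the control arrays, 1 of them detected, a fitted 2.55 ± 0.18. LTB, a membrane-bound member of the TNF family, read 12.79 and 12.27 on the dust arrays, against 8.78 and 8.64 on the control arrays, 14.1-fold higher. These genes stand apart from CCL20 in how closely the dust arrays match.

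TNF itself read 9.54 and 7.45 on the dust arrays and was undetected on the control arrays, at 4.79 and 4.91, at least 7.22-fold higher (adjusted p = 0.00228, limma). IL36G, an epithelial member of the IL-1 family, read 10.53 and 7.15 on the dust arrays and was undetected on the control arrays, at least 9.15-fold higher (adjusted p = 0.0135, limma). CSF3, the growth factor of neutrophils, read 8.32 and 5.81 on the dust arrays and was undetected on the control arrays, at least 2.68-fold higher (adjusted p = 0.0452, limma). In these 3 genes replicate 1 was more than 2 log2 units above replicate 2. The TNF call was lost on the 4 arrays alone and the IL36G call also on leaving out either control array. The CSF3 call was lost without any 1 of 10 arrays, by leaving out each of the 12 in turn. It was also lost on the 4 arrays alone, on the 6 BEAS-2B arrays alone and without the detection filter.

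NF-kB subunits and feedback genes followed, with 14 of 20 measured rising (70%, against 3.26% of all tested) and none falling. Their median log2 change was 1.91. SOD2, the mitochondrial superoxide dismutase and a classical NF-kB target, read 12.77 and 12.94 on the dust arrays, against 9.91 and 9.90 on the control arrays. It was 7.73-fold higher (adjusted p = 4.86e-06, limma), with replicate 2 the higher of the dust arrays. TNIP1, which binds TNFAIP3, read 11.86 and 11.52 on the dust arrays, against 9.64 and 9.59 on the control arrays, 4.22-fold higher. TRAF1, an adaptor of TNF receptors, read 7.70 and 7.38 on the dust arrays and was undetected on the control arrays, at least 3.73-fold higher. NFKB2, the subunit of the alternative pathway, read 9.13 and 8.61 on the dust arrays, against 6.98 and 6.70 on the control arrays, 4.07-fold higher. These genes varied little between the dust arrays.

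The inhibitors that end the signal were further apart. NFKBIA, the inhibitor that holds NF-kB in the cytoplasm, read 13.38 and 12.41 on the dust arrays, against 10.92 and 10.91 on the control arrays, 3.95-fold higher (adjusted p = 0.00140, limma). TNFAIP3, the ubiquitin-editing enzyme A20, read 11.08 and 9.10 on the dust arrays, against 6.32 and 6.80 on the control arrays, 11.5-fold higher (adjusted p = 0.00220, limma). Both calls were lost on the 4 arrays alone. IRAK2, a kinase of the Toll-like and IL-1 receptor pathway, read 10.77 and 9.54 on the dust arrays, against 6.50 and 6.97 on the control arrays, 10.7-fold higher. It was the only riser of 11 measured genes for pattern recognition and protease-activated receptors. Of these 11, 5 (TLR1, TLR2, TLR6, LY96 and NOD2) were detected on none of the 4 arrays, so a response of theirs could not be read. TLR4, the receptor for endotoxin, read 6.74 and 6.79 on the dust arrays, against 6.18 and 6.44 on the control arrays, and did not pass the test (adjusted p = 0.143, limma).

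Other large rises were of diverse kind. SAA4, an apolipoprotein of the serum amyloid A family, read 8.33 and 8.63 on the dust arrays and was undetected on the control arrays, at 5.25 and 5.20, at least 7.12-fold higher (adjusted p = 1.62e-06, limma). SAA genes resemble each other in sequence, so its probe may also bind their RNA. PI3, the elastase inhibitor elafin, read 11.72 and 10.72 on the dust arrays, against 7.76 and 7.80 on the control arrays, 10.8-fold higher. SGPP2, an enzyme that removes the phosphate of sphingosine 1-phosphate, read 11.13 and 9.65 on the dust arrays, against 6.31 and 6.43 on the control arrays, 16.2-fold higher.

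MMP3, stromelysin 1, read 11.49 and 9.65 on the dust arrays, against 5.78 and 6.20 on the control arrays, 23.9-fold higher (adjusted p = 0.000549, limma). MMP1, a collagenase, read 5.87 and 6.72 on the dust arrays and was undetected on the control arrays, at least 1.57-fold higher, with replicate 2 the higher dust array. These were the 2 risers among 7 measured metalloproteinases and inhibitors. The MMP1 call was lost on leaving out either control array, without dust 3 h replicate 2, on the 4 arrays alone and without the detection filter. TNFAIP6, a hyaluronan-binding protein, was at least 17.4-fold higher, G0S2, an inhibitor of lipolysis, at least 9.04-fold, and the mitochondrial carrier SLC25A24 a fitted 14.4-fold, with 1 of its control arrays undetected.

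Of 13 measured genes for adhesion and coagulation 7 rose (53.8%, against 3.26% of all tested), with a median log2 change of 1.15. PLAUR, the urokinase receptor, read 11.45 and 10.47 on the dust arrays, against 8.54 and 8.78 on the control arrays, 4.92-fold higher. CD44, a hyaluronan receptor, read 12.09 and 12.14 on the dust arrays, against 10.97 and 10.96 on the control arrays, 2.22-fold higher, with almost no spread. ICAM1, which binds leukocytes, read 9.44 and 7.39 on the dust arrays, against 5.91 and 5.30 on the control arrays, 1 of them detected (adjusted p = 0.0127, limma). F3, the tissue factor that starts clotting, read 12.21 and 11.31 on the dust arrays, against 9.72 and 10.21 on the control arrays, 3.48-fold higher (adjusted p = 0.0108, limma). The calls of ICAM1 and F3 were lost on the 4 arrays alone and without control replicate 1, that of ICAM1 also without control replicate 2 and that of F3 without dust 3 h replicate 1.

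Prostaglandin and growth factor genes rose in part. PTGS2, the inducible cyclooxygenase, read 9.68 and 7.96 on the dust arrays and was undetected on the control arrays, at least 9.03-fold higher (adjusted p = 0.00133, limma). PTGES, the prostaglandin E synthase downstream of it, read 7.05 and 7.02 on the dust arrays, against 5.58 and 5.62 on the control arrays, 1 of them detected (adjusted p = 0.000150, limma). With the receptor PTGER4 these were the 3 risers of 8 measured. The PTGER4 call was lost on leaving out either control array, without dust 3 h replicate 1 and on the 4 arrays alone. It was also lost on the 6 BEAS-2B arrays alone and without the detection filter.
Among 8 genes of the EGF receptor family and its ligands 3 rose (37.5%, against 3.26% of all tested) and 1 fell. TGFA read 9.88 and 9.55 on the dust arrays, against 7.40 and 7.52 on the control arrays, 4.76-fold higher. HBEGF read 11.52 and 10.08 on the dust arrays, against 7.82 and 7.93 on the control arrays, 7.59-fold higher, a call lost without control replicate 1. Both are ligands of the EGF receptor. The receptor EGFR also rose (1.45-fold), and ERBB3 read 7.58 and 8.33 on the dust arrays, against 9.05 and 8.98 on the control arrays, 2.09-fold lower. The calls of EGFR and ERBB3 were lost on leaving out either control array, without dust 3 h replicate 1 and on the 4 arrays alone. The EGFR call was also lost without dust 3 h replicate 2, without either dust 1 h array and under median scaling.

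Brakes of the MAP kinases were raised while most early transcription factors did not pass the test. Of 16 measured feedback genes 8 rose (50%, against 3.26% of all tested). Among them DUSP6, a phosphatase of ERK, read 9.81 and 9.14 on the dust arrays, against 7.52 and 7.43 on the control arrays (4.0-fold). SPRY4, a Sprouty inhibitor, read 9.05 and 7.95 on the dust arrays, against 6.20 and 6.26 on the control arrays (4.82-fold). Of 30 measured early transcription factors 3 rose (FOSL1, JUN and KLF4) and 12 (40%) were higher at an unadjusted p under 0.05, against 1435 of all 15489 tested (9.26%). Of the 30, 5 were undetected on all 4 arrays, FOS and EGR3 among them. FOSL1, an AP-1 subunit, read 9.54 and 8.67 on the dust arrays, against 6.72 and 7.29 on the control arrays, 4.29-fold higher, a call lost on the 4 arrays alone. The calls of JUN and KLF4 were lost on leaving out either control array, without dust 3 h replicate 1 and on the 4 arrays alone.

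Several other lists held few calls. None of 12 measured NRF2 genes passed the test, and 1 (8.33%) was lower at an unadjusted p under 0.05, against 1852 of all tested (12%). HMOX1, the haem oxygenase of that pathway, read 6.74 and 7.12 on the dust arrays, against 6.69 and 6.72 on the control arrays. CYP1A1, a target of the aryl hydrocarbon receptor, read 6.75 and 6.11 on the dust arrays, against 7.55 and 7.34 on the control arrays, 2.02-fold lower (adjusted p = 0.0184, limma), a call lost on leaving out either control array, without dust 3 h replicate 2 and on the 4 arrays alone. TIPARP of the same list rose, and CYP1B1 read 10.73 and 11.34 on the dust arrays, against 11.01 and 10.98 on the control arrays, where the groups overlap. Of 20 interferon response genes ISG20 (3.06-fold) and RIGI rose and IFIT1 fell, with a median of -0.07. The calls of TIPARP, RIGI and IFIT1 were each lost on leaving out either control array and on the 4 arrays alone. That of TIPARP was also lost without dust 3 h replicate 1 and that of IFIT1 without dust 3 h replicate 2. Leaving out any 1 of 9 arrays, dust 3 h replicate 1 among them, lost the RIGI call. So did median scaling and testing without the detection filter.

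The chaperone HSPA5 (2.06-fold) and PPP1R15A (1.92-fold) were the 2 risers of 10 genes for the unfolded protein and integrated stress responses. The list's median was 0.65, and 8 of the 10 were higher at an unadjusted p under 0.05, against 9.26% of all tested. The HSPA5 call was lost without control replicate 2 and the PPP1R15A call on leaving out either control array. None of 13 heat shock genes passed the test, with 1 (7.69%) lower at an unadjusted p under 0.05, against 12% of all tested. Of 17 genes of the BCL2 family and survival list 6 rose (35.3%, against 3.26% of all tested) and 1 fell. The risers included BIK (2.66-fold) and BID (2.22-fold), which promote cell death, and BCL2L1 and CFLAR, which oppose it.

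Genes of the cell cycle gave a single call, a rise. None of 16 measured G2/M genes passed the test, 3 (18.8%) were lower at an unadjusted p under 0.05 against 12% of all tested, and the median was -0.46 log2 (-0.60 on dust replicate 1 and -0.35 on replicate 2). KIF20A, a mitotic kinesin, read 9.87 and 10.14 on the dust arrays, against 11.03 and 11.11 on the control arrays (adjusted p = 0.0629, limma). CCND1, the cyclin that starts the cycle, was the only call of 15 G1/S genes, at 11.50 and 11.83 on the dust arrays, against 10.77 and 10.80 on the control arrays, 1.85-fold higher. Its call was lost without control replicate 1 and on the 4 arrays alone. No gene of cholesterol synthesis (9 measured) or of the housekeeping list (10 measured) passed the test or had an unadjusted p under 0.05.

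**Figure D2:**
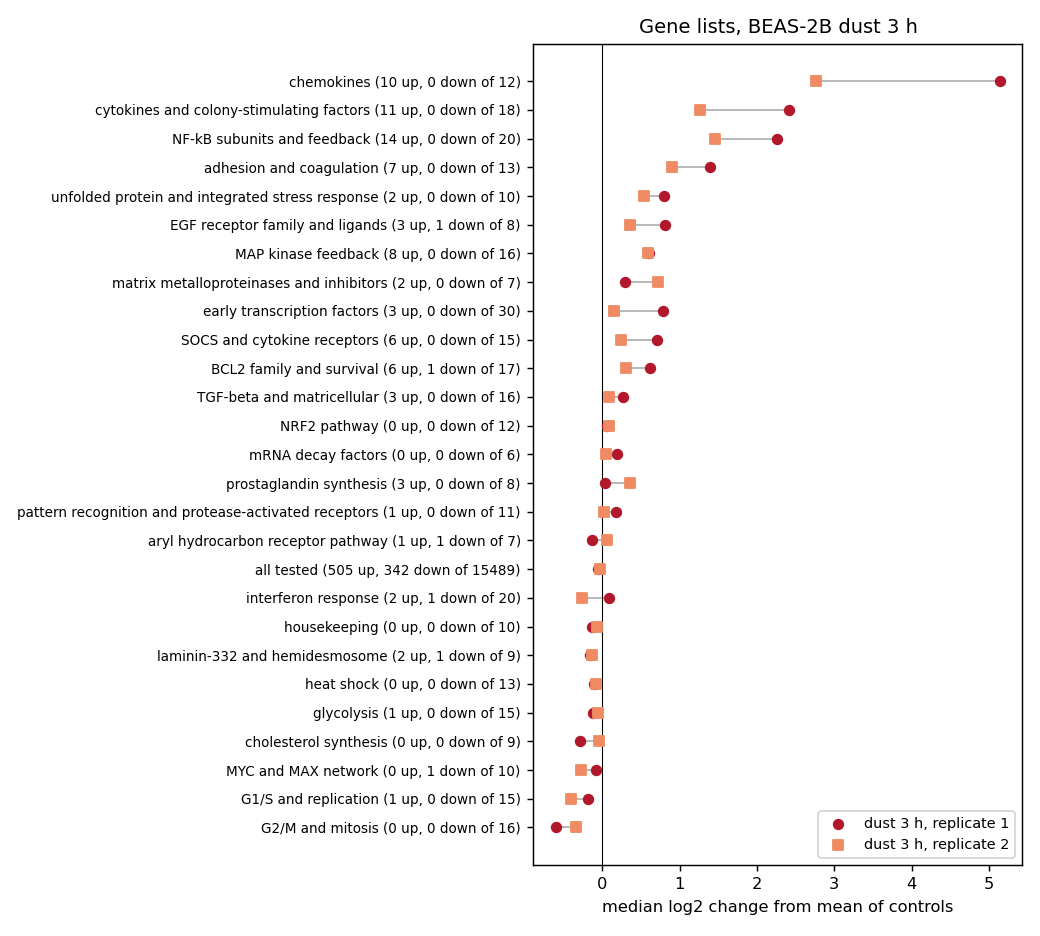
Median log2 change from the mean of the controls (horizontal axis) on each dust 3 h array for 26 gene lists and for all tested genes, with the members called in each direction out of those measured. The chemokine medians are 5.15 on replicate 1 and 2.77 on replicate 2, and the medians over all tested are -0.05 and -0.02.

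Among the falls were surface receptors and regulators of diverse kind, and most of the 10 largest ended below detection. ACKR3, a scavenger receptor for CXCL12, read 4.45 and 4.41 on the dust arrays, undetected, against 6.99 and 6.71 on the control arrays, at least 2.09-fold lower (adjusted p = 0.000277, limma). FAT2, a large protocadherin of epithelia, was undetected at 5.12 and 5.02 on the dust arrays, against 7.43 and 7.13 on the control arrays, at least 2.82-fold lower. TNNI2, a troponin subunit, was at least 3.17-fold lower, RAB7B, a small GTPase, at least 2.96-fold, the transcription factor NFE2 at least 2.67-fold, and EPN3, an endocytic adaptor, at least 2.09-fold. S1PR5, a sphingosine 1-phosphate receptor, read 4.91 and 6.12 on the dust arrays, 1 of them detected, against 8.04 and 7.78 on the control arrays.

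The other large falls were measured on all 4 arrays. MIR503HG, the non-coding host transcript of a microRNA cluster on the X chromosome, read 7.65 and 8.75 on the dust arrays, against 10.21 and 10.24 on the control arrays, 4.06-fold lower. SRPK2, a kinase of splicing factors, read 6.25 and 5.87 on the dust arrays, against 8.0 and 7.86 on the control arrays, 3.66-fold lower. FAM181B read 6.10 and 6.72 on the dust arrays, against 8.25 and 8.27 on the control arrays, 3.60-fold lower. MXD4, a partner of MAX that opposes MYC, was the single call among 10 MYC and MAX genes, 2.33-fold lower, lost without control replicate 1. Of all tested 2.21% fell. Of these 10 genes 4 (40%) were lower at an unadjusted p under 0.05, against 12% of all tested. The calls of S1PR5 and MIR503HG were lost on the 4 arrays alone.

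Replicate 2 of dust 3 h responded more weakly, but not for all genes. Over the 505 rises the median change from the mean of the controls was 1.22 log2 on replicate 1 and 0.98 on replicate 2, and replicate 2 was the smaller in 358 (70.9%). Over the 342 falls the medians were -0.80 and -0.81, and replicate 2 was the smaller in 169 (49.4%). The genes were picked for their mean over both replicates, so the choice itself favours neither array. The test's error includes the gap between the dust arrays, so genes with a wide gap were less readily called. The gap grew with size: over the 87 rises of at least 4-fold the medians were 3.26 and 2.42. The median gap between the 2 dust 3 h arrays over these 87 was -1.10 log2 (replicate 2 minus replicate 1), against 0.18 between the 1 h arrays and 0.06 between the control arrays.

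The gap differed in size between sets of genes. Of 171 rises called at 1 h (1.1% of those tested), chosen by their difference between the 1 h and control arrays with an error estimate that all 12 arrays share, the median 3 h change was 1.53 on replicate 1 and 0.84 on replicate 2, and replicate 2 was the smaller in 155 (90.6%). Replicate 1 lay above the 1 h mean in 69 of these and replicate 2 in 32, and in 31 replicate 1 lay above both 1 h arrays and replicate 2 below both. Over the 400 rises called at 3 h and not at 1 h, a set chosen on the 3 h arrays themselves, the medians were 1.06 and 0.91. Of 122 genes raised at least 16-fold in THP-1 cells at 3 h, replicate 2 changed less in BEAS-2B in 91 (74.6%). Their medians were 1.00 and 0.39. Of 1429 raised at least 2-fold there, replicate 2 changed less in BEAS-2B in 854 (59.8%), with medians of 0.24 and 0.14. Of 1880 lowered at least 2-fold there, replicate 2 changed less in BEAS-2B in 1137 (60.5%), with medians of -0.28 and -0.17. The share over all tested was 51.2%.

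Across the 6 BEAS-2B arrays the first principal component, with 50.5% of the variance, placed dust 3 h at 36.1 and 19.0, dust 1 h at -2.16 and 4.11 and control at -29.9 and -27.1. The second, with 25.6%, placed them at 2.44 and 23.8 for dust 3 h, -22.2 and -21.5 for dust 1 h and 9.05 and 8.41 for control. So replicate 2 stood nearer to the controls on the first component and farthest from the 1 h arrays on the second. The median SD between replicates was 0.120 log2 for dust 3 h, 0.105 for dust 1 h and 0.0851 for control.

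**Figure D3:**
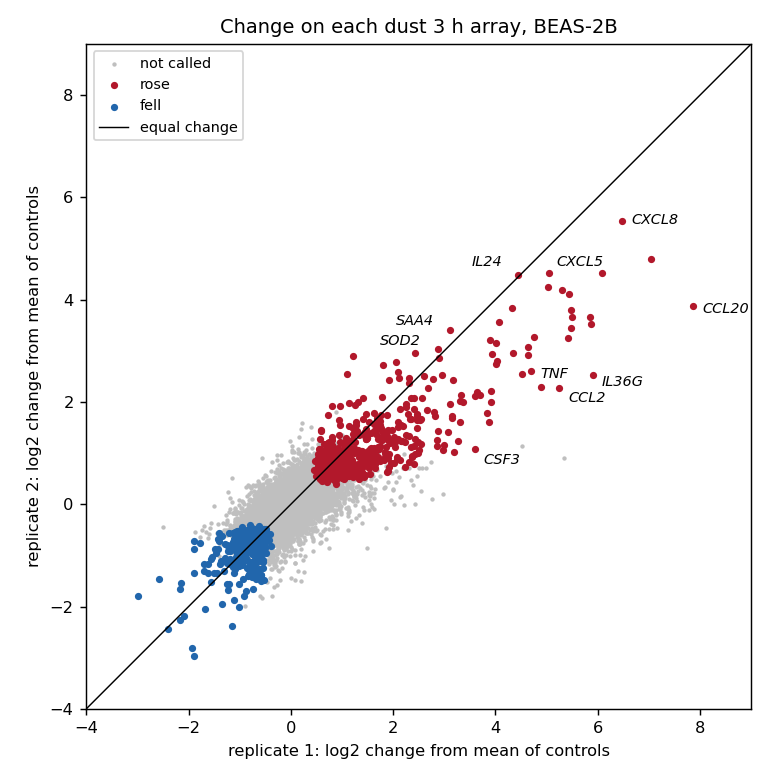
Change from the mean of the controls (log2) on dust 3 h replicate 1 (horizontal axis) and replicate 2 (vertical axis) for all 15489 genes and unnamed probes. Most large rises lie below the line of equal change, with CCL20 farthest to the right, while the falls scatter on both sides of it.

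The dust arrays were at least 2-fold apart for 80 of the called genes and probes, 73 rises and 7 falls. In 69 of the 73 rises replicate 2 was the lower array. The median gap was 1.44 log2, a value that the choice of genes at least 2-fold apart sets in part. The bead standard errors give the gap an error with a median of 0.0850 and a maximum of 0.222 log2, which covers the reading of beads on an array and nothing before it. The 4 rises with replicate 2 higher, named after their values were seen, were the anthrax toxin receptor ANTXR2 and the metallothioneins MT1F, MT1H and MT1M. Metallothioneins bind zinc, copper and other metals. MT1M read 7.51 and 9.21 on the dust arrays, against 6.19 and 6.42 on the control arrays (adjusted p = 0.0159, limma). MT1F read 10.19 and 11.21 on the dust arrays, against 9.58 and 9.35 on the control arrays, and MT1H read 6.95 and 8.39 on the dust arrays, against 5.71 and 6.0 on the control arrays, 1 of them detected.

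The other measured metallothioneins did not all share that gap. MT1G read 10.16 and 10.47 on the dust arrays, against 8.40 and 8.35 on the control arrays (adjusted p = 0.000604, limma), and MT1E read 13.64 and 13.67 on the dust arrays, against 12.32 and 12.31 on the control arrays (adjusted p = 0.000969, limma). MT1X and MT2A did not pass the test. These genes are near copies of each other, so a probe may bind RNA of several. Some genes that dust replicate 1 left at control level were lower on replicate 2 alone, also named after their values were seen. The keratin KRT14 read 9.999 and 8.55 on the dust arrays, against 9.92 and 9.79 on the control arrays. The collagen COL1A1 read 8.41 and 6.83 on the dust arrays, against 8.17 and 8.15 on the control arrays. Neither passed the test.

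Between 1 h and 3 h some early genes such as FOSB and TNF dropped and others such as SGPP2 and CXCL6 rose further. The comparisons of 3 h and of 1 h with control share the control arrays. The difference between 3 h and 1 h does not contain the control values, but the control arrays enter its error estimate, as all 12 arrays share 1 fit. At 3 h 219 were higher than at 1 h (1.41%) and 203 lower (1.31%). Median scaling gave 199 and 330, so those higher were 37.6% of calls in place of 51.9%. The total of 422 fell to 77 without dust 1 h replicate 1, 106 without dust 1 h replicate 2, 252 without control replicate 1 and 259 without control replicate 2.

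The 203 were of more than one kind: 124 were also called below control at 3 h, FAT2, TNNI2 and EPN3 among them, and 11 were rises over control that had dropped since 1 h. The 5 largest fitted drops of named genes were FOSB, TNF, EGR3, FOS and CXCL2. FOSB, an AP-1 subunit, read 5.62 and 5.68 in control, 10.87 and 10.96 at 1 h and 6.91 and 5.64 at 3 h, so it stood 4.64 ± 0.41 log2 below its 1 h level (SE, adjusted p = 0.00039, limma). EGR1, an early growth response factor, read 9.77 and 9.83 in control, 11.96 and 11.93 at 1 h and 10.10 and 9.48 at 3 h. FOS and EGR3 were detected on both arrays at 1 h and on neither at 3 h. ATF3, DUSP1 and ZFP36 were also lower at 3 h than at 1 h. TNF read 4.79 and 4.91 in control, 11.41 and 11.57 at 1 h and 9.54 and 7.45 at 3 h. CXCL2 read 5.19 and 5.47 in control, 12.26 and 12.51 at 1 h and 10.76 and 8.59 at 3 h, so both had dropped and were still raised.

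The largest gain of a named gene after 1 h was that of SGPP2, which read 6.31 and 6.43 in control, 6.70 and 6.45 at 1 h and 11.13 and 9.65 at 3 h. It stood 14.1-fold above its 1 h level (adjusted p = 0.00052, limma). CXCL6 was 6.98-fold, MMP3 6.81-fold, PI3 6.19-fold and SAA4 6.04-fold above the 1 h level. CXCL5, IL24, SOD2, IL23A, TNIP1 and TGFA were also higher at 3 h than at 1 h. CXCL8, by contrast, read 14.36 and 14.27 at 1 h, between the readings of its dust 3 h arrays, and did not differ by the test (adjusted p = 0.75, limma).

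**Figure D4:**
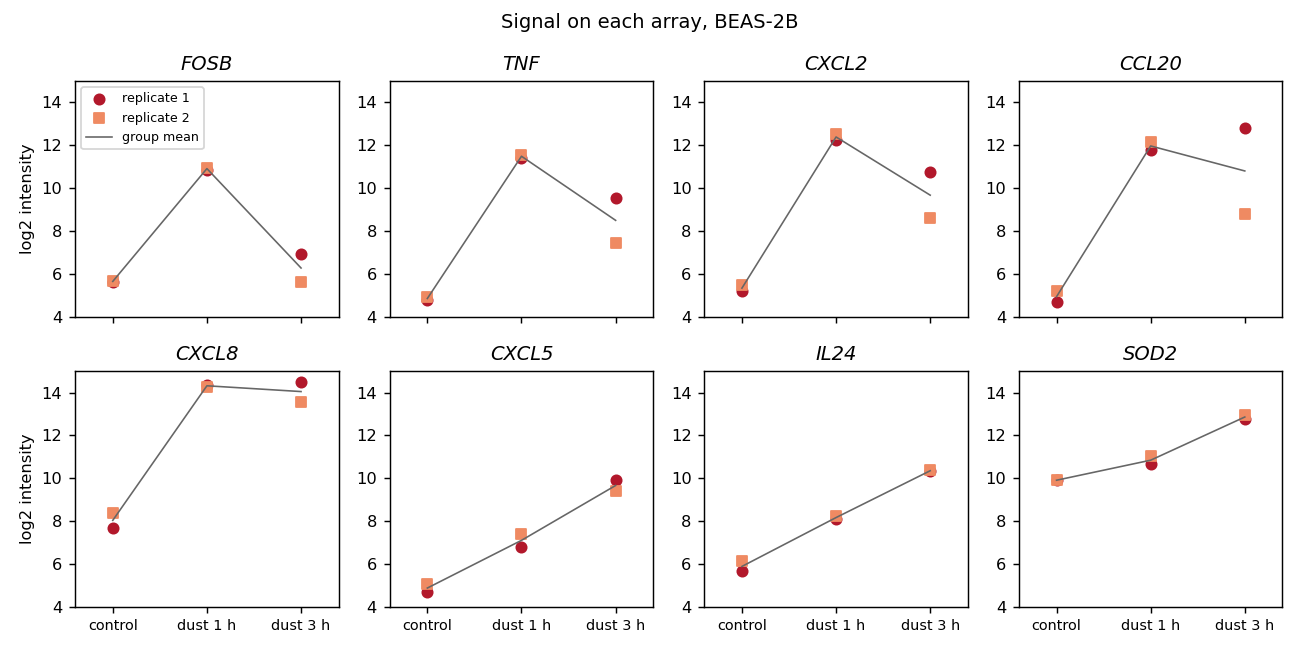
Normalized log2 intensity (vertical axis) of 8 genes on each BEAS-2B array in control, dust 1 h and dust 3 h, with replicates as symbols and group means joined by lines. FOSB returns to near control by 3 h, TNF and CXCL2 drop part of the way, and CXCL5, IL24 and SOD2 go on rising with dust arrays close together.

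The dust effect at 3 h was also set against that in THP-1 cells, where line and dose differ together (0.25% extract for BEAS-2B, 0.1% for THP-1) and so cannot be told apart. The effect was more positive in BEAS-2B for 2299 (14.8%) and less for 1815 (11.7%). Under median scaling these became 3447 and 1180, with the median of all genes moving from 0.03 to 0.25 log2. CXCL5 rose in BEAS-2B and was undetected in THP-1, a fitted difference in effect of 5.03 ± 0.33 log2 (SE, adjusted p = 5.9e-06, limma) that rests in part on undetected arrays. MMP3, IL24, SAA4 and TGFA likewise changed in BEAS-2B and were undetected on all 4 THP-1 arrays of dust 3 h and control. CXCL8 changed by 6.01 log2 in BEAS-2B and 7.76 in THP-1, and SOD2 by 2.95 and 5.48. CCN2, a matricellular protein, was detected in BEAS-2B without a call at 3 h (0.29 log2). At 1 h it had read 14.06 and 14.10 there, against 11.73 and 11.99 in control (adjusted p = 0.000656, limma). IGFBP3, a carrier of insulin-like growth factors, was detected in BEAS-2B without a call at 3 h (-0.14 log2) or at 1 h. In THP-1 both genes were detected with dust for 3 h and undetected in control.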

How the data were processed

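The authors deposited, per the file headers, a linear intensity per probe, its bead standard error as intensity, a bead count and a detection p-value (GenomeStudio 2011.1, per the submitters' processing notes). Their value table also holds intensity. The members and gene lists here were chosen with earlier results of these data known. Signals were background-corrected and quantile-normalized to log2 intensities with neqc of limma 3.58.1 (offset 16), starting from the authors' deposited table. A probe was kept at detection p under 0.01 on both arrays of a group (19045 of 47320), the brightest probe standing for a gene. Symbols came from the platform annotation, updated through Entrez numbers to GRCh38.p14, and 4067 tested probes had none. The 12 arrays together entered 1 linear model with a mean for each of 6 groups (lmFit and eBayes), where the degrees of freedom were 6 residual and 4.3 prior. Named genes were the 20 largest rises and 10 largest falls with separated arrays, up to 4 members of smallest p of each of 26 lists, 19 followed genes, the 5 widest dust gaps and the 5 largest each way in the other 2 comparisons. A gene undetected on all arrays of 1 group has an "at least" fold against the detection floor. Replicate numbers were not taken as pairs, since the labels give them no shared source. The fit was tested on simulated data.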

Additional observations from a re-analysis of the deposited data

Results flagged for a closer look

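The dust effect at 3 h differed between the lines by an interaction term, more positive in BEAS-2B for 2299 and less for 1815. Among the largest fitted positive differences (log2, BEAS-2B minus THP-1) were CXCL5 5.03, CX3CR1 4.64, CCR2 4.51, ARHGEF3 4.45 and MMP3 4.34, and among the negative ones CCL4L1 -8.67, IGFBP3 -8.66, CCN2 -7.67, CCL3 -6.70 and SLC16A10 -6.35. CX3CR1, CCR2, CCL3 and CCL4L1 were undetected on the BEAS-2B dust 3 h and control arrays, so their differences come from the THP-1 arrays. CCL4L1, IGFBP3, CCN2 and SLC16A10 were undetected on the THP-1 controls, SLC16A10 on the BEAS-2B dust 3 h arrays, CXCL5 and MMP3 on all 4 THP-1 arrays compared and CXCL5 on the BEAS-2B controls. These fitted values are therefore neither exact sizes nor bounds, and their order carries no meaning. The dust effect also differed between times in BEAS-2B, 219 higher and 203 lower at 3 h than at 1 h. The largest (log2, 3 h minus 1 h) were SGPP2 3.81, CXCL6 2.80, MMP3 2.77, PI3 2.63 and SAA4 2.59, and FOSB -4.64, TNF -2.99, EGR3 -2.90, FOS -2.80 and CXCL2 -2.72, where the fitted values of EGR3 and FOS rest on undetected 3 h arrays. With 2 arrays in each group, no single array could be tested as standing apart from its group.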

How the results depend on the processing

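Of 150 named genes, 88 were called and 46 of these lost the call in no alternative run that tested them. A run that did not test a gene counted as no loss. Detection on all 12 arrays, for example, left out genes such as CXCL5 that the control arrays did not detect. None changed sign where called. Against 847 calls for dust 3 h, the 4 arrays alone gave 421, detection on all 12 arrays 458, array weights 1695 and the strict threshold (adjusted p under 0.01 and 2-fold) 258, and leaving out 1 array in turn gave 217 to 959. Against 422 calls for 3 h over 1 h, detection on all 12 arrays gave 176, array weights 646 and the strict threshold 109, and leaving out 1 array gave 77 to 458. Against 4114 calls for the difference between lines, detection on all 12 arrays gave 2451 and the strict threshold 2061, and leaving out 1 array gave 2767 to 4156. Detection on all 12 arrays tests fewer genes and the 4 arrays alone use fewer samples. Array weights came out equal for both arrays of each group. They were 2.01 for BEAS-2B control, 1.46 for dust 1 h, 0.903 for dust 3 h and 0.598 to 0.936 for the THP-1 groups. So they set no replicate below the other, and why the calls increased was not tested. Deviations of same-numbered arrays correlated at r = 0.01 between dust 3 h and control, -0.10 between dust 3 h and 1 h and 0.20 between 1 h and control in BEAS-2B, and at 0.24, 0.29 and 0.34 between the THP-1 groups. The labels give the numbers no shared source and there are only 2 of them, so they were not taken as pairs. With the number as a replicate block, 992 were called for dust 3 h, 442 for 3 h over 1 h and 4631 for the difference between lines. Signal near background limits the falls, 93 of which ended undetected.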
